A study of Drosophila melanogaster with 2 samples.

Results

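elav, fne, Rbp9 and shep encode RNA-binding proteins of the fly nervous system, and the binding of the transcription factor Apterous at these 4 of 13968 protein-coding genes was described. A peak was taken where its summit lay inside the gene or where the start site of the gene was the nearest of any protein-coding gene. By this rule 12 of the 3184 peaks in the conservative list, the stricter of the 2 deposited lists from both replicates pooled, belonged to the 4 genes: 2 to elav, 1 to fne, 1 to Rbp9 and 8 to shep. The genes were chosen by the peak calls of these same lists, so that each has a peak is no finding, and no test was made. In the conservative list 17.4% of protein-coding genes had a peak by the same rule. Apterous was mapped by chromatin immunoprecipitation and sequencing (ChIP-seq) with anti-GFP in transgenic flies of the strain ap-GFP, which carry an ap-eGFP fusion from an insertion at ap. There was 1 group, whole embryos aged 0 to 24 h, with 2 biological replicates. The labels do not say whether an untagged ap gene is still present, and no control immunoprecipitation was analysed here. Every embryonic cell type was in each library, so neurons, other tissues and embryos of every age were read together.

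Apterous is a LIM-homeodomain transcription factor that acts in subsets of interneurons, in muscle and in the dorsal wing, and homeodomains of its class bind sites with the core TAATTA. elav, fne (found in neurons) and Rbp9 are the Drosophila members of the ELAV/Hu family, whose RNA recognition motifs bind U-rich RNA. Elav is nuclear, present in nearly all neurons and used as their standard marker, and it directs neuronal splicing and polyadenylation. Fne and Rbp9 are its paralogs, and Rbp9 also acts in the female germ line. shep (alan shepard) encodes an RNA-binding protein of another family, which acts in neuronal remodelling and counters the Su(Hw) insulator in the nervous system.

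The sequence around the summit is shown for the strongest peaks of elav and shep and for the single peaks of fne and Rbp9. It is also shown for the shep peaks with TAATTA or TAATTG within 50 bp of the summit. Each run is 101 bases centred on the summit, on the plus strand of the RefSeq release 6 assembly, whose chromosome lengths equal those of dm6. Capitals mark TAATTA, or CAATTA, which is TAATTG on the other strand. Peaks are numbered from the 5′ end of each gene.
elav peak 1, chrX:523420-523520: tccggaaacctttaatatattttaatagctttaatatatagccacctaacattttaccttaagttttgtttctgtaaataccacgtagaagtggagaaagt
fne peak 1, chrX:12925938-12926038: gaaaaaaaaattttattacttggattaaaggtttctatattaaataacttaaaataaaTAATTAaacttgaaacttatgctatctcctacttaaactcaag
Rbp9 peak 1, chr2L:2957697-2957797: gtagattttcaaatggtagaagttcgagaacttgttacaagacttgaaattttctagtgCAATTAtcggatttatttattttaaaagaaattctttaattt
shep peak 2, chr3L:5278103-5278203: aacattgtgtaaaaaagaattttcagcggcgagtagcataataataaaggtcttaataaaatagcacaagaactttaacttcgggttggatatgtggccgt
shep peak 3, chr3L:5248985-5249085: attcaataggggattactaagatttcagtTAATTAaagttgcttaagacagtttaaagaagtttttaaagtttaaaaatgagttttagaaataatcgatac
shep peak 7, chr3L:5187112-5187212: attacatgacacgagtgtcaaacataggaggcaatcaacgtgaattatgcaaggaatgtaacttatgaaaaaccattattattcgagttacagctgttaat
shep peak 8, chr3L:5180402-5180502: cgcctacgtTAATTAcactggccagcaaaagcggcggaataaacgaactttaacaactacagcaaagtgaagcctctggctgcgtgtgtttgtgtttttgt

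The deposited signal is the authors' value of a peak, of unstated scale, and describes peaks within 1 list. The ranked list of candidates held 102850 peaks in replicate 2 and 82646 in replicate 1, and the thresholded list 2210 in replicate 2 and 1977 in replicate 1. The lists carry no read totals, and the depth is therefore unknown. The value of a replicate at a pooled peak is its strongest ranked peak that overlaps it. Means, SDs and ratios of the replicates set values of 2 lists side by side. In them unlike depth or scale cannot be told apart from unlike binding. Over all conservative peaks with a value in both, the log2 ratio of replicate 2 to replicate 1 had a median of 0.03 and an SD of 0.43 (n = 3134 peaks).

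The strongest binding at the 4 genes was just upstream of elav. The gene (FBgn0260400) spans chrX:509235-523226 on the minus strand, 14.0 kb, and 3 of its 4 transcripts start at 523226. Peak 1 (chrX:523386-523564) had its summit at 523470, which is 244 bp upstream of that start. Its pooled signal of 361 ranked 145 of 3184, within the top 4.55% of the list. It was also the narrowest of the 12 as deposited, 179 bp wide, where the other 11 were 296 bp. Over all conservative peaks the median width and both quartiles were 296 bp, and the 5th percentile was 118 bp. The signal was 177 in replicate 2 and 185 in replicate 1 (mean 181 ± 5.48, SD, n = 2), and both replicates held it in their thresholded lists with the highest score, 1000. The replicates thus lay close together here, at a log2 ratio of -0.06. The summit is not in elav but in an intron of arg, the arginase gene (FBgn0023535, chrX:509435-528028), which runs on the opposite strand across nearly all of elav. Which of these genes, or of others, the bound sequence serves was not tested.

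A weaker site lay within elav. Peak 2 (chrX:522469-522764) had its summit at 522617, which is 609 bp downstream of the start and 853 bp from the first summit, in an intron of 3 elav transcripts. The same base lies in arg and in lncRNA:enrr, a noncoding gene that starts at the same base as elav. The pooled signal was 89.4 (rank 1686). The signal was 58.0 in replicate 2 and 31.9 in replicate 1 (mean 45.0 ± 18.5, SD, n = 2). The peak passed the threshold in replicate 2 only, and its score in replicate 1 was 184. The log2 ratio of 0.86, a 1.82-fold difference, was the largest of the 12 and stood at percentile 97.3 of all conservative peaks. The window around this summit held 48.5% G and C, against 29.7% at peak 1, and neither window held TAATTA or TAATTG.

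**Figure D1:**
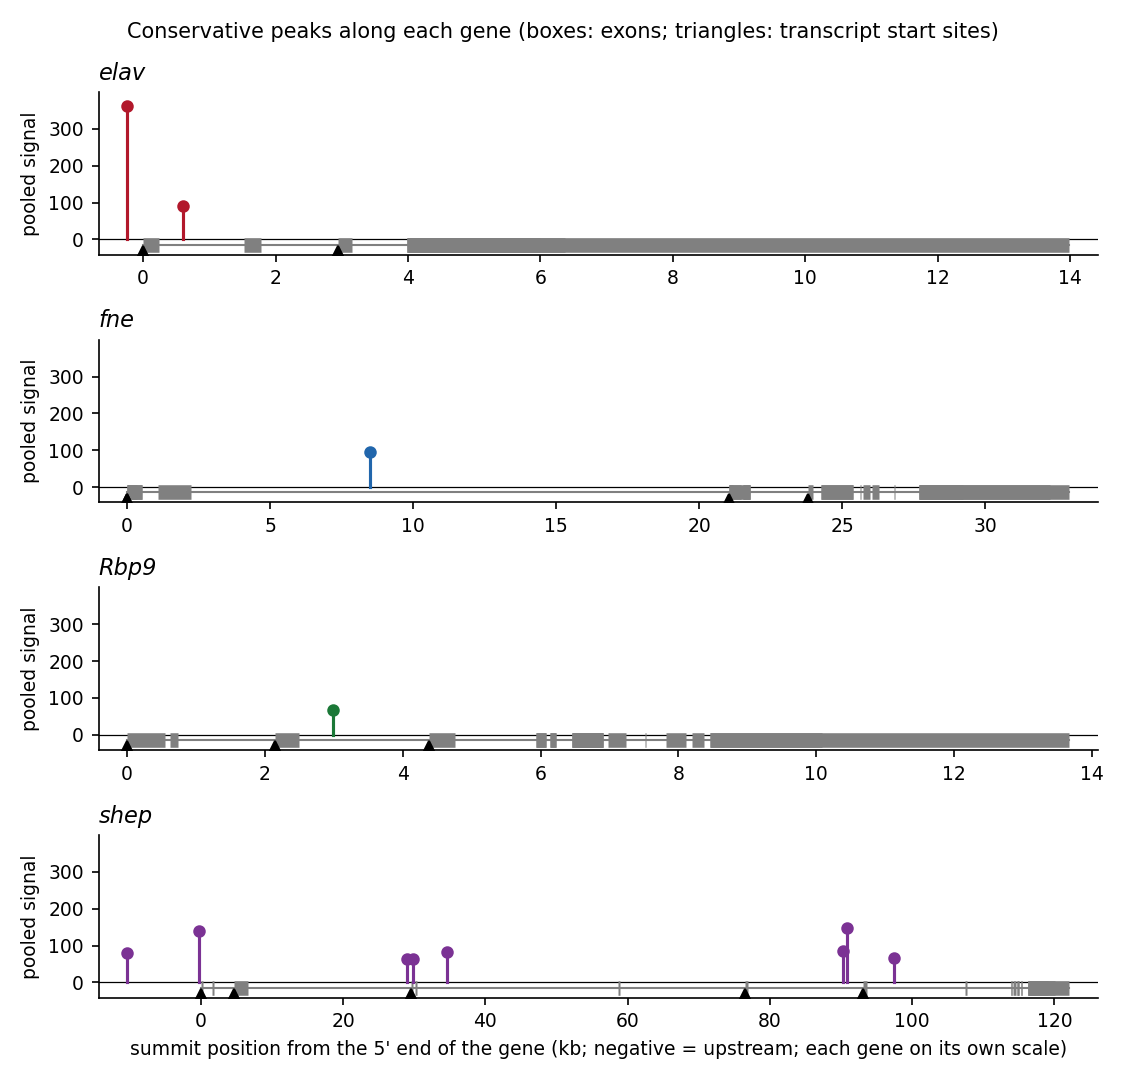
Pooled signal of each conservative peak (vertical axis, deposited units) by its summit position from the 5′ end of the gene in kb, with exons as boxes and transcript start sites as triangles. The elav peak upstream of the start stands highest at 361, and the 8 shep peaks fall around the 5′ end, around 29 to 35 kb and around 90 to 97 kb into the gene.

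fne had 1 peak, deep in an intron and repeated in both replicates. The gene (FBgn0086675, chrX:12917477-12950417, plus strand, 32.9 kb) has 11 transcripts from 4 start sites. The peak (chrX:12925840-12926135) had its summit at 12925988, in an intron of 4 transcripts and 8504 bp downstream of the nearest start. Its pooled signal was 95.6 (rank 1551), next to the median of 93.6 over the other conservative peaks. The signal was 48.1 in replicate 2 and 51.6 in replicate 1 (mean 49.9 ± 2.50, SD, n = 2), a log2 ratio of -0.10. Both replicates held it above the threshold, with scores of 852 and 1000. TAATTA begins 8 bp to the right of the summit, in a window with 19.8% G and C. A second candidate in the same intron, with summit 12923490, had a signal of 36.2 and a score of 739 in replicate 1 and stayed under the threshold. In replicate 2 the candidate at 12923502 had a signal of 11.1, so the deposited signals at that site were unlike.

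The single Rbp9 peak was among the weaker of the 12 and passed in the pooled lists only. The gene (FBgn0010263, chr2L:2954762-2968434, plus strand, 13.7 kb) has 9 transcripts from 3 start sites. The peak (chr2L:2957599-2957894) had its summit at 2957747, in an intron of 6 transcripts. It lay 836 bp downstream of the start at 2956911, which gives 4 of the transcripts, and 2985 bp from the 5′ end of the gene. The pooled signal was 67.1 (rank 2402). The signal was 29.9 in replicate 2 and 36.1 in replicate 1 (mean 33.0 ± 4.40, SD, n = 2), at scores of 479 and 269. The replicates differed little, with a log2 ratio of -0.27, yet neither reached the threshold on its own. The variant core TAATTG lies 9 bp to the right of the summit, written CAATTA on the plus strand.

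shep, the longest of the 4 at 122 kb (FBgn0052423, chr3L:5155821-5277944, minus strand), had 8 conservative peaks in 3 stretches. Over all protein-coding genes, 0.0931% had 8 or more, which is 13 genes, and 10 had more than shep. Of the 87 protein-coding genes of 100 kb or more, 56.3% had a peak, against 17.4% of all protein-coding genes, and 3.45% had 8 or more. Their median was 1 peak and their highest count 17. Whether gene length plays a part in the shep count was not tested. The 8 transcripts of shep come from 5 start sites, at 5277944, 5273334, 5248448, 5201412 and 5184797.

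Around the 5′ end of shep there were 2 peaks. Peak 2 (chr3L:5278005-5278300) had its summit at 5278153, 209 bp upstream of the first start site. Its pooled signal was 140.1 (rank 861), with 61.7 in replicate 2 and 77.1 in replicate 1 (mean 69.4 ± 10.9, SD, n = 2). Both replicates held this peak above the threshold. Peak 1 (chr3L:5288204-5288499) stood alone with its summit at 5288352, 10408 bp upstream of the same start site and in no gene. The near edge of the next protein-coding gene on its other side, CG46456, was 55267 bp away. Its signal was 78.4 pooled, 48.9 in replicate 2 and 34.0 in replicate 1 (mean 41.4 ± 10.5, SD, n = 2). It passed in replicate 2 only, and its window had the lowest share of G and C of the 12, 16.8%.

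The second stretch held 3 peaks around the start site at 5248448, inside the long introns of shep. Peaks 3 and 4 stood on either side of that start, 946 bp apart. Peak 3 (chr3L:5248887-5249182, summit 5249035) was 587 bp upstream, with signals of 63.2 pooled, 34.4 in replicate 2 and 31.7 in replicate 1 (mean 33.0 ± 1.86, SD, n = 2). Peak 4 (chr3L:5247941-5248236, summit 5248089) was 359 bp downstream, with 62.2 pooled, 26.6 in replicate 2 and 36.4 in replicate 1 (mean 31.5 ± 6.90, SD, n = 2). Neither of these 2 passed in a replicate alone. Their windows differed in composition. That of peak 3 held 23.8% G and C and a TAATTA beginning 21 bp to the left of the summit. That of peak 4 held 49.5% and neither TAATTA nor TAATTG. Peak 5 (chr3L:5243242-5243537, summit 5243390) lay 5058 bp downstream of the same start. Its signal was 81.3 pooled, 29.0 in replicate 2 and 49.0 in replicate 1 (mean 39.0 ± 14.1, SD, n = 2). It passed in replicate 1 only, and its log2 ratio of -0.76 was the lowest of the 12, at percentile 3.64 of all conservative peaks.

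The third stretch lay 90 to 97 kb into the gene, on both sides of the start site at 5184797, which gives 3 of the 8 transcripts. Peak 7 (chr3L:5187014-5187309, summit 5187162) was the strongest shep peak. It lay 2365 bp upstream of that start, in an intron of 5 transcripts, with signals of 148 pooled (rank 791), 88.2 in replicate 2 and 65.7 in replicate 1 (mean 77.0 ± 16.0, SD, n = 2). Both replicates held peak 7 above the threshold. Peak 6 (chr3L:5187507-5187802, summit 5187655) was 493 bp farther upstream, with 85.6 pooled, 37.6 in replicate 2 and 45.4 in replicate 1 (mean 41.5 ± 5.53, SD, n = 2). Peak 6 passed in replicate 1 only, and in replicate 2 its score was 738. Peak 8 (chr3L:5180304-5180599, summit 5180452) lay 4345 bp downstream of the start, in an intron of all 8 transcripts. Its signal was 66.7 pooled, 29.0 in replicate 2 and 28.8 in replicate 1 (mean 28.9 ± 0.186, SD, n = 2), the closest pair of the 12. Peak 8 nevertheless had the lowest scores in the replicates' own lists, 191 and 132, and passed in neither. Its window had 45.5% G and C and a TAATTA beginning 41 bp to the left of the summit.

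**Figure D2:**
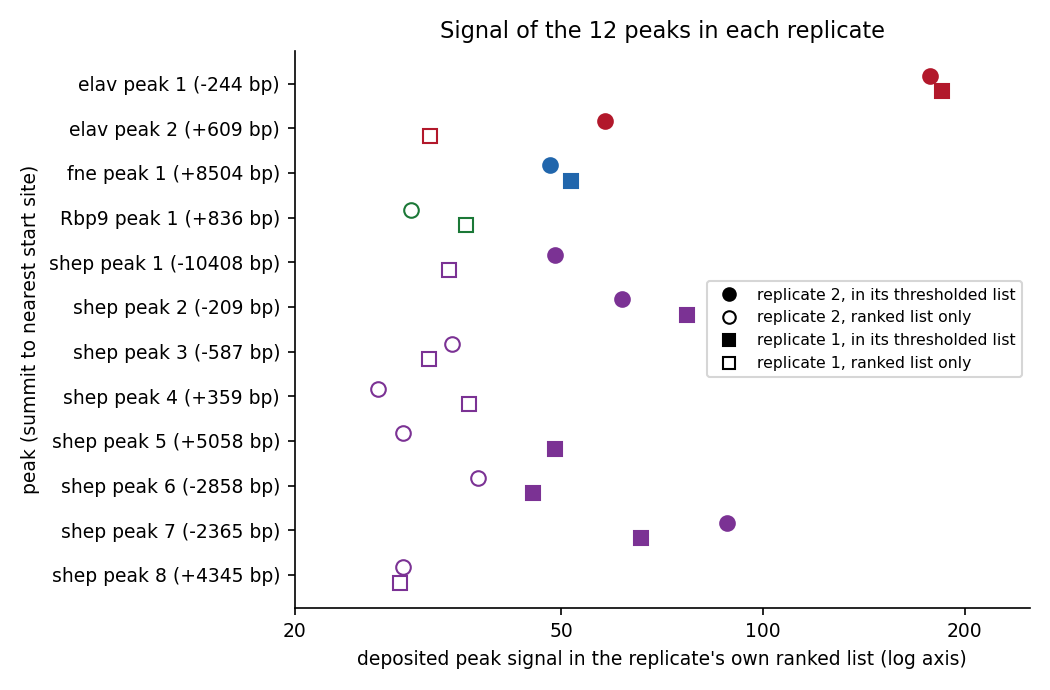
Signal of each of the 12 peaks in replicate 2 (circles) and replicate 1 (squares) on a log axis in deposited units, filled where the peak is in that replicate's thresholded list. elav peak 1 stands apart at 177 and 185, and the other 11 peaks lie between 26.6 and 88.2.

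The order by pooled signal was elav peak 1, shep peak 7, shep peak 2, fne, elav peak 2 and then the remaining 7 peaks of shep and Rbp9 between 62.2 and 85.6. elav peak 1 stood apart in both replicates, at 177 in replicate 2, where shep peak 7 came next with 88.2, and at 185 in replicate 1, where shep peak 2 came next with 77.1. shep peaks 7 and 2 changed places between the replicates, with peak 7 higher in replicate 2 and peak 2 higher in replicate 1. Below these 3 peaks the order differed between the replicates and is not resolved: elav peak 2 stood above fne in replicate 2, at 58.0 and 48.1, but below fne, Rbp9 and shep peaks 1, 4, 5 and 6 in replicate 1. The median pooled signal was 83.5 over the 12 peaks and 93.6 over the other 3172.

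**Figure D3:**
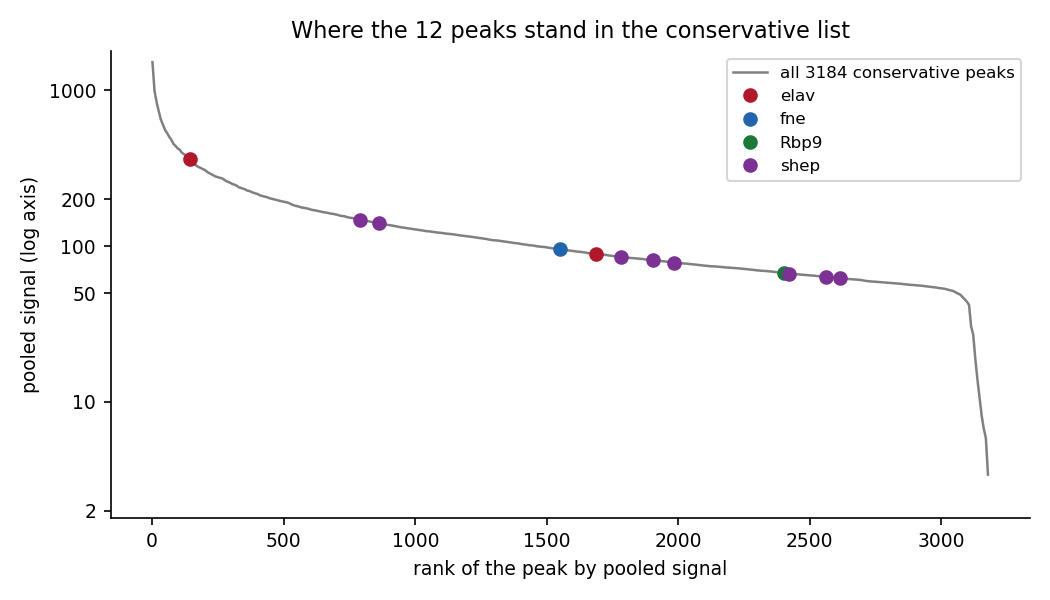
Pooled signal on a log axis (deposited units) against rank for all 3184 conservative peaks (line), with the 12 peaks marked by gene. elav peak 1 is at rank 145, and the other 11 peaks lie between rank 791 and rank 2613.

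Of the 12 peaks, 4 overlapped a thresholded peak of both replicates (elav peak 1, fne, and shep peaks 2 and 7), 2 of replicate 2 only, 2 of replicate 1 only and 4 of neither. Over all conservative peaks 48.1% were thresholded in both replicates and 27.9% in neither. Of the other 3172 conservative peaks, 15.1% were thresholded in replicate 2 only and 8.89% in replicate 1 only. All 12 had a candidate in both ranked lists and lay within 2-fold between the replicates, and 96.1% of the other conservative peaks lay within 2-fold. The conservative list was read as keeping peaks whose rank repeats between the replicates, so that selection sets this closeness in part. The signal was higher in replicate 2 at 5 of the 12 and at 52.5% of the others. The log2 ratios had a median of -0.08 and an SD of 0.45 over the 12, against 0.03 and 0.43 over the others. Of the 12, 10 fell between -0.68 and 0.73, the 5th and 95th percentiles of all conservative peaks. The exceptions were elav peak 2, high in replicate 2, and shep peak 5, high in replicate 1.

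**Figure D4:**
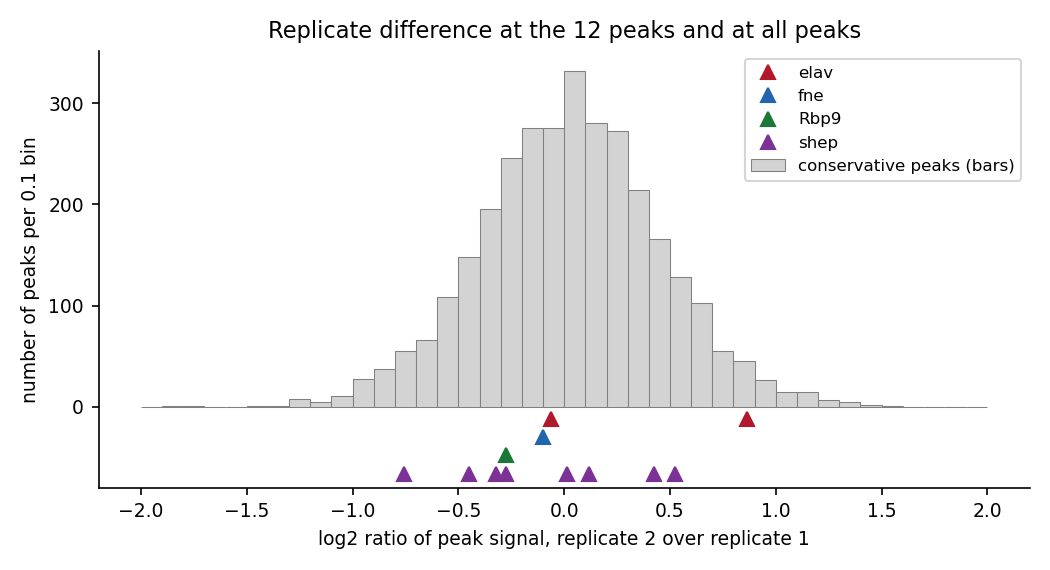
Log2 ratio of peak signal, replicate 2 over replicate 1, as the number of conservative peaks per bin of 0.1 (bars), with the 12 peaks as triangles, 1 row per gene. The 12 range from -0.76 to 0.86, with elav peak 2 at the right and shep peak 5 at the left.

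The number of peaks depended on the list. The less strict pooled list had 13 of its 3289 peaks at the 4 genes, and 18.1% of protein-coding genes had a peak in it. Its additional peak was at shep (chr3L:5278999-5279294), with a summit 1203 bp upstream of the first start site and a pooled signal of 51.8. Replicate 2 had 6 thresholded peaks at the 4 genes: 2 at elav, 1 at fne, 0 at Rbp9 and 3 at shep. Replicate 1 also had 6, with 1 at elav, 1 at fne, 0 at Rbp9 and 4 at shep. In these lists 13.5% of protein-coding genes had a peak in replicate 2 and 12.2% in replicate 1. elav, fne and shep therefore had a peak in every thresholded list, and Rbp9 in the pooled lists alone.

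The score of a peak rises as its irreproducible discovery rate (IDR) falls, that is, as its rank repeats better between sets of reads. No thresholded peak scored under 830, an IDR of 0.0100. Just inside in the conservative list were shep peak 8, with a score of 942 and an IDR of 0.00537, and shep peak 4, with 979 and 0.00438. Just outside was a shep candidate with its summit at 5188591, a score of 827, a signal of 54.0 and an IDR of 0.0102. It lies 3794 bp upstream of the start at 5184797, in the stretch of peaks 6 and 7. The next were a summit in shep at 5161198 whose nearest start is that of Srp54k (score 715, signal 52.9) and one in Rbp9 at 2967061 whose nearest start is that of Ts (score 676, signal 46.9).

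The ranked lists show how far the peaks stand above the candidates around them. At shep, replicate 2 had 146 candidates, of which the 143 under the threshold had a median signal of 11.7 and a highest of 37.6. Replicate 1 had 107, of which 103 were under the threshold with a median of 13.2 and a highest of 36.4. The thresholded shep peaks ranged from 48.9 to 88.2 in replicate 2 and from 45.4 to 77.1 in replicate 1, all above the candidates left below, a gap that the threshold itself sets in part. At Rbp9 the highest candidates, 29.9 in replicate 2 and 36.1 in replicate 1, were those of the pooled peak. Per kb of gene, shep had 0.966 candidate summits in replicate 2 and 0.704 in replicate 1, Rbp9 0.878 in each, elav 0.715 and 0.429, and fne 0.516 and 0.364. Over the assembled chromosomes there were 0.748 in replicate 2 and 0.601 in replicate 1. Of the candidates of the 4 genes in replicate 2, 86 of 192 (44.8%) overlapped one of replicate 1, against 48.1% of its whole list. In the other direction 88 of 141 (62.4%) did, against 60.0% of the whole list. At elav 2 of 12 candidates of replicate 2 and 2 of 7 of replicate 1 did, and these are the candidates of the 2 conservative peaks.

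**Figure D5:**
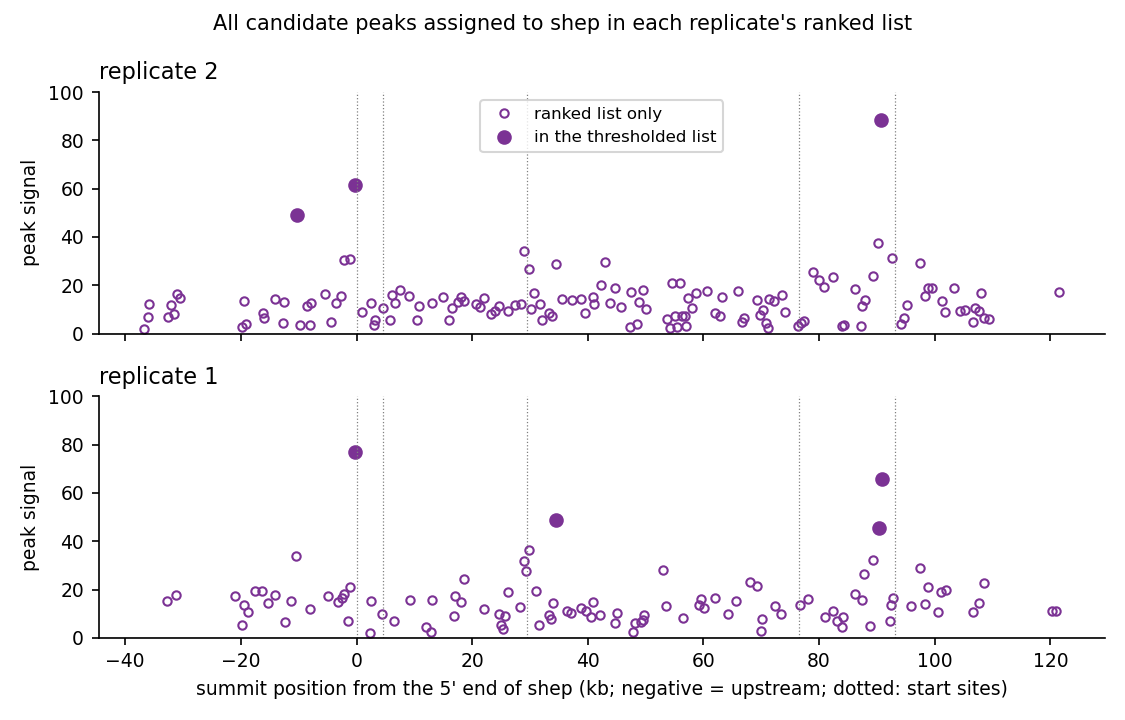
Signal (deposited units) of every candidate peak assigned to shep in replicate 2 (upper) and replicate 1 (lower) by summit position from the 5′ end in kb, filled where thresholded, with start sites as dotted lines. The thresholded peaks at the 5′ end and near 91 kb appear in both replicates, that near -10 kb in replicate 2 only, and those near 35 kb and at the second position near 90 kb in replicate 1 only.

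By location, 3 of the 12 summits lay within 500 bp of an annotated transcript start, 8 in introns, 1 between genes and 0 in other exons. Over all conservative peaks 42.3% of summits were within 500 bp of a start, and of the other 3172 peaks 39.5% were in introns, 15.0% between genes and 3.15% in other exons. The 3 near a start were elav peak 1, shep peak 2 and shep peak 4, of which peak 4 is also inside an intron of the longer shep transcripts. Of the 12, 9 were inside their gene and 3 outside. Conservative summits inside the gene numbered 7.31 per 100 kb at Rbp9, 7.15 at elav, 4.91 at shep and 3.04 at fne, against 2.31 over the assembled chromosomes. The values of elav, fne and Rbp9 each rest on 1 summit, and 1 summit in a gene of their length already exceeds 2.31. The 4 genes were chosen by their peaks in these lists, so values above that of the chromosomes are no finding.

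Within 50 bp of the summit on either strand, TAATTA was found at 3 of the 12 peaks (fne and shep peaks 3 and 8) and at 11.4% of all conservative peaks. TAATTG was found at 1 of the 12 (Rbp9) and at 11.6% of all. TATCGATA, the element bound by DREF, was found at 0 of the 12 and at 0.974% of all. It includes CGATA, bound by the boundary protein BEAF-32, and CGATA alone was not counted over the peaks. On one strand or the other, CGATA does occur in the windows of Rbp9 and of shep peaks 3 and 6. Among 136452 candidates of the pooled ranked list under the threshold the shares were 5.28%, 8.34% and 0.210%. These candidates held 46.0% G and C on average, so their base composition also differed, and its part in these shares was not tested. The 3 peaks with TAATTA had pooled signals of 95.6, 66.7 and 63.2, while the 3 strongest of the 12 held none of these 3 sequences in the window. The share of G and C over the 12 windows averaged 32.9% ± 11.4 (SD, n = 12 peaks) and ranged from 16.8% to 49.5%, against 33.0% ± 9.89 over the other peaks.

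Other RNA-binding protein genes that act in neurons were read by nearest start site, by which 15.8% of protein-coding genes had a conservative peak. Of 27 such genes, 13 had one. Their median length is 36.4 kb, against 2.16 kb over all protein-coding genes, and whether gene length plays a part in this count was not tested. The strongest was at msi (musashi, a translational repressor of neural precursors), with signals of 532 pooled, 265 in replicate 2 and 270.5 in replicate 1 and its summit 219 bp upstream of the start. mub, which encodes a KH-domain protein, had 474 pooled, 224 in replicate 2 and 244 in replicate 1. Both stood above elav peak 1 in each replicate. brat, a translational repressor that limits neuroblast growth, had 316 pooled, 162 in replicate 2 and 149 in replicate 1, below elav peak 1. mbl (muscleblind, a splicing regulator) had 229 pooled, and ps (pasilla, the Nova ortholog) had 192, both above every shep peak.

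The other lists are short and were read against the same 15.8% of all protein-coding genes by nearest start, and 17.4% where summits inside the gene also count. Of 6 genes whose RNA the ELAV family is known to bind or process (Nrg, ewg, arm, Dscam1, emc and bam), 0 had a conservative peak by nearest start. With summits inside the gene counted it was 1 of 6: Nrg, whose neuronal splice form Elav directs, had 2 that were nearer to the start of another gene. Of 15 genes active in nearly all neurons, 1 had a peak by either count. That was Syx1A, a synaptic syntaxin, with signals of 140.0 pooled, 63.9 in replicate 2 and 69.8 in replicate 1 at 6628 bp from its start, in an intron of eIF4EHP. nSyb and brp, like elav markers of neurons, had 0. Of 3 genes of the Su(Hw) insulator, which Shep counters, 1 had a peak by nearest start and 2 with summits inside the gene, where mod(mdg4) was added. Cp190 had its peak 134 bp upstream of its start, with 251 pooled, 151 in replicate 2 and 95.9 in replicate 1. Of 5 glial genes 1 had a peak by nearest start and 2 with summits inside the gene, where gcm2 was added, and repo had 0. The strongest peak of moody had 399 pooled, 179 in replicate 2 and 223 in replicate 1, 157 bp upstream of its start in CG4313.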

How the data were processed

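ChIP-seq peak lists of 2 biological replicates of 1 group were used, 8 lists on dm6 per the labels. The aligner and peak caller were not given in the sources used here. Each deposited signal is the authors' own, of unstated scale. The score the authors deposited is a scaled IDR, the ranked lists also hold it as −log10 of the IDR in the deposited files, and the summit is the peak start plus the deposited offset. Without read totals the depth is unknown, no interval is given, and SDs come from 2 values.

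The pooled ranked list that holds every conservative peak was read as comparing the replicates. Peaks off the assembled chromosomes (17 in the conservative list) were left out. Genes came from Ensembl release 115 without transposable elements (18277 genes, 13968 protein-coding), and all 56 symbols of the lists matched. Overlaps need 1 bp. The genes and lists were chosen with earlier results of these data known, so values are descriptions without tests. The genes named are the 4, every gene at their summits or nearest to them, and, of each other list, up to 5 with the strongest conservative peaks; genes named outside this rule are members of the lists or neighbours of candidates under the threshold, named after their values were seen. The functions for nearest starts, overlaps and motifs were checked on simulated data. Alternatives were other lists, overlaps, windows and assignments. Python 3.11.15, numpy 2.4.6, pandas 2.3.3 and matplotlib 3.10.9 were used.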

Additional observations from a re-analysis of the deposited data

How the results depend on the processing

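The 12 conservative peaks of the 4 genes became 6 in either replicate's own thresholded list (from 6 to 6 with 1 replicate left out) and 4 in the part of the conservative list above its median signal. The count was 13 in the less strict list, 10 at the highest score only, and 9 both for summits inside the gene and for summits within 5 kb of a start. Rbp9 had 0 peaks in each replicate's own list and above the median, and fne had 0 within 5 kb of a start. Summits with TAATTG numbered 2 with 100 bp on each side, against 1 with 50 bp, and those with TAATTA stayed at 3. Over the other conservative peaks the wider window raised the shares to 19.7% for TAATTG, against 11.6%, and 18.5% for TAATTA, against 11.3%, so the difference from them was smaller for TAATTA. All 24 alternative log2 ratios, by nearest ranked summit or by 50% overlap, were equal to the main values, so these settings put the ratios to no further check. Of the 20 counts for the other gene lists, 15 stayed within 1.5 times. No paired analysis was possible because there is 1 group. With no read totals, a candidate under the threshold in 1 replicate cannot be told apart from a site read less deeply there.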

Other observations

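Several RNA-binding protein genes of the neuronal list passed in 1 replicate only, and these were chosen after their values were seen. Such calls were common: of 3172 conservative peaks outside the 4 genes, 15.1% were thresholded in replicate 2 only and 8.89% in replicate 1 only. The share over all genes was not counted, so this is no trait of the list. pum (Pumilio, a translational repressor) was the nearest start of 0 thresholded peaks in replicate 2 and of 4 in replicate 1, and Rbfox1, a splicing regulator, of 0 and 2. bru2 and Imp each had 1 in replicate 2 and 0 in replicate 1. At the strongest conservative peak of Sxl, the sex determination gene, the signal was 102 in replicate 2 and 59.0 in replicate 1. At that of pum it was 30.2 in replicate 2 and 57.4 in replicate 1.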
